A study of Mus musculus with 8 samples.

Results

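Genes named as alcohol dehydrogenases (Adh), aldehyde dehydrogenases (Aldh), retinol dehydrogenases (Rdh) and members of the dehydrogenase/reductase short-chain family (Dhrs) were followed in the ventral prostates of WT mice and of hSKP2-KI mice. Membership was set by symbol, as every gene of the table whose symbol is Adh, Aldh, Rdh or Dhrs followed by a digit. These families were chosen with earlier results of these data known, so counts of members are only a description. The rule gave 50 of the 36333 genes listed, of which 6 were Adh, 21 Aldh, 12 Rdh and 10 Dhrs genes. The remaining member, Dhrs13os, is an antisense RNA and not an enzyme.

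The libraries came from 4 hSKP2-KI and 4 WT male FVB/N mice at 12 months of age, with 1 ventral prostate sample per mouse. In hSKP2-KI mice, a P2A sequence followed by the human SKP2 coding sequence was placed by CRISPR/Cas9 in exon 1 of the X-linked probasin gene (Pbsn), so that the mouse probasin promoter, which is active in prostate epithelium, drives it. SKP2 is the substrate-binding part of a ubiquitin ligase that degrades cell cycle inhibitors. Several founder lines were made, and the line of the sequenced mice is not stated. WT mice carried no insert and neither genotype was treated. The values are TPM (transcript levels scaled to a common total), in which the reads of a gene are divided by transcript length and each library is scaled to a total of 1000000. Levels of different genes can therefore be set side by side, but the number of reads behind a value is unknown.

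Alcohol dehydrogenases oxidise alcohols to aldehydes, and aldehyde dehydrogenases oxidise aldehydes to acids. The same chemistry makes retinoic acid, the ligand of the retinoic acid receptors, from vitamin A. Retinol is oxidised to retinaldehyde by some of the Rdh, Dhrs and Adh enzymes, and retinaldehyde to retinoic acid by Aldh1a enzymes. Some Dhrs enzymes, Dhrs3 among them, run the first step backwards and return retinaldehyde to retinol. Other aldehyde dehydrogenases clear aldehydes that come from ethanol, lipid peroxidation or the breakdown of amino acids.

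The knock-in was visible in the libraries. The gene listed as Skp2 lay between 37.3 and 60.6 TPM in hSKP2-KI and between 1.05 and 2.27 TPM in WT prostates, and Pbsn lay between 93.0 and 174 TPM against 3980 to 9232 TPM. The summed level of 8 luminal epithelial markers was 2933 to 3134 TPM in hSKP2-KI and 2590 to 2815 TPM in WT prostates. The 3 ventral secretory markers (Sbp, Sbpl and Spink1) together took 321196 to 343438 TPM in hSKP2-KI and 404156 to 458469 TPM in WT prostates. Every library sums to the same total, so a smaller share for these genes leaves a larger share for the rest. The median difference of the 13080 tested genes was 0.23 on the log2(TPM + 1) scale. Each comparison was therefore made on the TPM as deposited and again after median-ratio scaling, which divides each library by the median ratio of its genes to their geometric mean over libraries and brought that median to -0.0071. Differences below are hSKP2-KI minus WT on the log2(TPM + 1) scale, from limma with Benjamini-Hochberg adjustment over all tested genes, and a gene was called at an adjusted p under 0.05. The added 1 makes differences of low genes smaller than the ratio of their TPM.

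Of the 50 members, 37 reached 1 TPM in at least 4 of the 8 samples and were tested. In the TPM as deposited, 12 were higher and 1 was lower in hSKP2-KI prostates. Over all tested genes 32.7% were called higher and 1.23% lower, and the 32.4% of tested members that were higher is close to the first of these. After median-ratio scaling 2 members were higher and 6 lower, beside 6.92% and 4.25% of all tested genes. The median difference over the tested members was 0.13 in the TPM as deposited and -0.07 after scaling. Without regard to the test, 8 members in the TPM as deposited lay higher in each hSKP2-KI sample than in any WT sample and 2 lay lower in each, where 34.0% and 1.03% of all tested genes did so. After scaling these numbers were 2 and 9, beside 10.3% and 8.91% of all tested genes. The members called in the same direction on both scales were Adh6a, which was lower, and Adh7 and Aldh1b1, which were higher. Adh7 and Aldh1b1 had all WT samples under 1 TPM and entered the test through their hSKP2-KI samples, so the count of 2 higher members is only a description. Among all tested genes 6.92% were called higher and 1.21% lower on both scales. The count of 12 was sensitive to single libraries: it was 7 without hSKP2-KI replicate 1, 5 without hSKP2-KI replicate 2, hSKP2-KI replicate 4 or WT replicate 3, and 6 without WT replicate 1 or WT replicate 4.

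The strongest differences were in the alcohol dehydrogenase cluster. All 6 Adh genes of the table lie on the forward strand of chromosome 3, within 257.4 kb at chr3:138198064-138455499 (RefSeq, GRCm38), in the order Adh7, Adh1, Adh6a, Adh6b, Adh4 and Adh5. Adh6a and Adh7, which moved in opposite directions within this cluster, are shown here by their promoter windows, which run from 250 bases before to 50 bases after the annotated start (RefSeq, GRCm38.p6, forward strand). The Adh6a window is chr3:138313036-138313335 and the Adh7 window is chr3:138217523-138217822. The Adh7 window surrounds a start that lies inside the extent given for the gene, which begins upstream at chr3:138198064. Letters in capitals mark matches to the motifs searched.

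Adh6a: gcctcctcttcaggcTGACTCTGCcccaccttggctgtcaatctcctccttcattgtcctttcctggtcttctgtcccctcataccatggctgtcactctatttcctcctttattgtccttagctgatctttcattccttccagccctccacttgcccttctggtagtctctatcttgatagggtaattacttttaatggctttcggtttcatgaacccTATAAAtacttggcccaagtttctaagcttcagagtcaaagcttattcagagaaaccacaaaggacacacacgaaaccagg

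Adh7: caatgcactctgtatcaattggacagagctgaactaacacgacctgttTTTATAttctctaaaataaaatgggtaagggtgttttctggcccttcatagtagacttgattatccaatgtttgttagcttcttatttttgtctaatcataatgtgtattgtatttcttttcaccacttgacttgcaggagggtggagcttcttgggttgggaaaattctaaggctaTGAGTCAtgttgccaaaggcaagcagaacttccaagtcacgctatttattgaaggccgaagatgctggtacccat

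The motifs searched on both strands were TATAAA for a TATA box, TGAGTCA for AP-1, TGACNNNGC for an antioxidant response element, AGGTCA for a nuclear receptor half-site and AGAACA for an androgen receptor half-site. The Adh6a window held TATAAA at position -31 from the start and TGACNNNGC at -235. The Adh7 window held TGAGTCA at -25 and TATAAA on the reverse strand at -202, and the matches did not overlap. Neither window held AGGTCA or AGAACA. Among all 32817 RefSeq windows of this length, TATAAA was in 13.6%, TGAGTCA in 5.2%, TGACNNNGC in 12.4%, AGGTCA in 16.3% and AGAACA in 18.97%. Of the 46 windows of members that the table of promoters holds, 7 held TATAAA, 6 TGAGTCA, 4 TGACNNNGC, 9 AGGTCA and 7 AGAACA. A match describes the letters of the window and is not evidence of binding.

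Adh6a (Entrez 69117; chr3:138313286-138331134) encodes an alcohol dehydrogenase whose substrates are little studied. The hSKP2-KI samples held 8.31, 8.72, 11.4 and 19.5 TPM and the WT samples 55.3, 107, 69.3 and 38.1 TPM. The highest hSKP2-KI sample was below the lowest WT sample, and both genotypes spread widely. The means were 12.0 ± 5.22 TPM (SD, n = 4) and 67.5 ± 29.4 TPM (SD, n = 4), so the WT mean was 5.63 times the hSKP2-KI mean, or 6.76 times after scaling. The difference was -2.38 (SE 0.31, adjusted p = 0.0010) and -2.63 after scaling (adjusted p = 0.0017). It passed the test under all 15 alternatives tried, and leaving out single samples gave -2.62 to -2.13.

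Adh7 (Entrez 11529; chr3:138198064-138232042) encodes the class of alcohol dehydrogenase found mainly in epithelia such as stomach and oesophagus, with high activity on retinol. Its level was low in both genotypes, at 2.95, 4.67, 5.05 and 5.59 TPM in hSKP2-KI and 0.396, 0.545, 0.425 and 0.562 TPM in WT samples. Every hSKP2-KI sample exceeded every WT sample several times over. The means were 4.56 ± 1.14 TPM and 0.482 ± 0.0836 TPM (SD, n = 4 each), a ratio of 9.47, or 7.88 after scaling. The difference was 1.88 (SE 0.16, adjusted p = 0.0001) and 1.73 after scaling (adjusted p = 0.0002). All WT samples were under 1 TPM, so Adh7 entered this test only through its hSKP2-KI samples. With no filter on low values its adjusted p was 0.0019. The RNA gene 0610031O16Rik (chr3:138210717-138239663 in RefSeq) overlaps the extent of Adh7. The strand setting of the counting is not stated, and whether the Adh7 values include reads of this RNA gene was not tested.

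Adh1 (Entrez 11522; chr3:138277585-138290698), the classical enzyme of ethanol and retinol oxidation, was the most abundant member. It was listed at 472, 487, 408 and 472 TPM in hSKP2-KI and 369, 410, 377 and 407 TPM in WT samples, and the groups overlapped in 1 hSKP2-KI sample. The difference was 0.23 (SE 0.08, adjusted p = 0.0447), at the median of all tested genes, and -0.037 after scaling (adjusted p = 0.80), so its direction depended on the scale. The call as deposited was also lost without hSKP2-KI replicate 1, 2 or 4 or WT replicate 1, 3 or 4. Adh5 (Entrez 11532; chr3:138437200-138455499) encodes the formaldehyde and S-nitrosoglutathione metabolising enzyme present in most cells. It was listed at 112, 103, 99.5 and 107 TPM in hSKP2-KI and 87.8, 85.7, 76.0 and 88.0 TPM in WT samples, with no overlap. Its difference was 0.32 (SE 0.07, adjusted p = 0.0109) as deposited and 0.05 after scaling (adjusted p = 0.74). Adh6b and Adh4 stayed under the filter, with highest values of 0.0628 and 0.113 TPM.

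The makeup of the summed Adh level differed between the genotypes. Summed Adh TPM was 582 ± 38.6 in hSKP2-KI and 543 ± 41.2 in WT prostates (SD, n = 4 each) and overlapped as deposited. After scaling, every hSKP2-KI sum was below every WT sum. Within a library the shares do not depend on scaling. Adh6a made up 1.40% to 3.24% of Adh TPM in hSKP2-KI and 7.15% to 17.8% in WT samples. Adh7 made up 0.496% to 0.964% against 0.0773% to 0.105%, and Adh1 77.9% to 80.7% against 67.9% to 76.3%. The shares of a library are tied to each other, so a smaller Adh6a share leaves a larger share for Adh1. The difference of Adh1 itself was -0.037 after scaling. Adh6a was 1.87 to 3.50 times as abundant as Adh7 in hSKP2-KI prostates and 67.9 to 197 times as abundant in WT prostates.

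The RNA gene Gm16559, named here after its values were seen, lies on the opposite strand between Adh1 and Adh6a (chr3:138302493-138307031 in RefSeq), 11.8 kb from the end of Adh1 and 6.3 kb before Adh6a. The values of Gm16559 were 4.74, 6.39, 4.62 and 6.45 TPM in hSKP2-KI and 0.599, 1.13, 1.37 and 0.765 TPM in WT samples. The groups did not overlap, and the difference was 1.74 (SE 0.16, adjusted p = 0.0002) and 1.56 after scaling (adjusted p = 0.0006). GENCODE draws a longer form of this gene across Adh1, and the strand setting of the counting is not stated, so reads of the longer form could not be told apart from those of Adh1. The plot of the cluster's genes by sample shows the 4 Adh genes that passed the filter and Gm16559. Other RNA genes and a pseudogene that RefSeq places within the cluster are not shown. Outside the cluster on the same chromosome, Mttp and Metap1 were called on neither scale, with differences of 0.05 and 0.14 as deposited. Trmt10a (0.57) and Eif4e (0.27) were called higher as deposited and not after scaling.

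**Figure D1:**
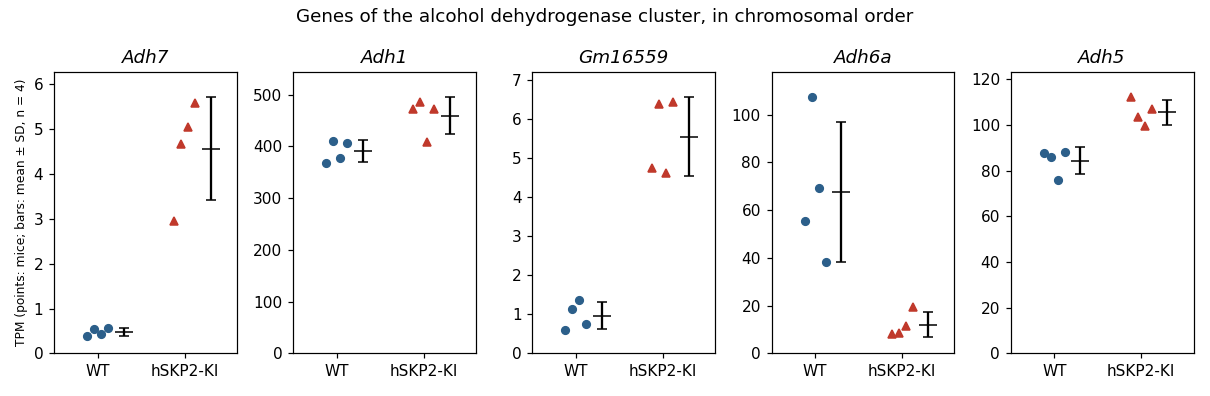
TPM (linear axis from 0, a separate scale in each panel) of 5 genes of the alcohol dehydrogenase cluster in 4 WT (circles) and 4 hSKP2-KI (triangles) prostates, with the mean and SD beside each group. Adh6a is lower in all hSKP2-KI samples than in any WT sample, Adh7 and Gm16559 are higher in all of them, and Adh1 and Adh5 differ by far less relative to their level.

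Enzymes that make retinoic acid from retinaldehyde are encoded by genes of the Aldh1a class. Aldh1a1 (Entrez 11668; chr19:20492583-20643463) dominated the class, with 264, 309, 337 and 389 TPM in hSKP2-KI and 357, 383, 315 and 299 TPM in WT samples. The groups overlapped throughout, and neither the difference as deposited (-0.07, SE 0.12, adjusted p = 0.67) nor that after scaling (-0.34, adjusted p = 0.109) passed the test. Aldh1a7 (Entrez 26358; chr19:20692953-20727556), a close relative that lies beside Aldh1a1, was listed at 62.1, 69.3, 75.5 and 75.3 TPM in hSKP2-KI and 92.9, 79.9, 73.6 and 80.9 TPM in WT samples. Its groups overlapped as deposited through WT replicate 3, and the difference of -0.21 did not pass (adjusted p = 0.094). After scaling the groups separated and the gene was called lower (-0.48, adjusted p = 0.0229), a call lost without hSKP2-KI replicate 1 or 2. The longest transcripts of Aldh1a7 and Aldh1a1 were 89.1% identical over 2041 aligned bases with a longest shared run of 100 bases. No stretch of 150 bases was shared, and how reads that fit both were divided is not stated, so the split between these neighbours is uncertain.

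Aldh1a2 and Aldh1a3 were much less abundant. Aldh1a3 (Entrez 56847; chr7:66390892-66427477) was listed at 7.79, 9.79, 7.43 and 9.78 TPM in hSKP2-KI and 3.45, 5.96, 6.32 and 6.70 TPM in WT samples, with no overlap. It was called higher as deposited (0.58, SE 0.17, adjusted p = 0.029) and not after scaling (0.34, adjusted p = 0.17). Aldh1a2 (Entrez 19378; chr9:71215789-71296243), the main retinoic acid producing enzyme of many mesenchymal tissues, was listed at 5.20, 5.42, 4.25 and 8.63 TPM in hSKP2-KI and 2.68, 4.46, 4.33 and 2.82 TPM in WT samples. Here hSKP2-KI replicate 3 lay within the WT range. Its difference was 0.57 (SE 0.20, adjusted p = 0.047) and 0.36 after scaling (adjusted p = 0.25). Both calls rested on single libraries: that of Aldh1a3 was lost without hSKP2-KI replicate 2 or 4, and that of Aldh1a2 was lost without hSKP2-KI replicate 1, 2 or 4 or WT replicate 1, 3 or 4. Aldh1a2 and Aldh1a3 together made up 11.7 to 18.4 TPM in hSKP2-KI and 6.13 to 10.6 TPM in WT prostates. After scaling these sums were 10.6 to 16.4 and 7.41 to 11.9 and overlapped.

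Among the other aldehyde dehydrogenases, Aldh1b1 (Entrez 72535; chr4:45799022-45804608) was higher on both scales. It encodes a mitochondrial enzyme that resembles Aldh2 and oxidises acetaldehyde and other aldehydes. Its values were 1.86, 1.82, 1.31 and 1.52 TPM in hSKP2-KI and 0.440, 0.672, 0.597 and 0.749 TPM in WT samples. All hSKP2-KI samples were above all WT samples, and the levels were low. The means were 1.63 ± 0.261 TPM and 0.615 ± 0.132 TPM (SD, n = 4 each). The difference was 0.70 (SE 0.13, adjusted p = 0.0044) and 0.57 after scaling (adjusted p = 0.0186). Aldh1b1 too entered this test only through its hSKP2-KI samples. With no filter the adjusted p was 0.0102, and under quantile normalization the gene was not called (adjusted p = 0.0516).

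Members called higher only in the TPM as deposited also included Aldh2, the mitochondrial acetaldehyde dehydrogenase, with a difference of 0.27 (adjusted p = 0.035), Aldh9a1, which acts on aminoaldehydes, with 0.31 (adjusted p = 0.034), and Aldh16a1 with 0.37 (adjusted p = 0.024). After scaling these differences were 0.0043, 0.05 and 0.12. Members called lower only after scaling were Aldh7a1 (-0.45, adjusted p = 0.0156) and Aldh5a1 (-0.34, adjusted p = 0.0165), which serve the breakdown of lysine and of gamma-aminobutyric acid, and Aldh3b2 (-0.33, adjusted p = 0.0423). As deposited these 3 genes differed by -0.18, -0.09 and -0.09. The calls of Aldh2 and Aldh9a1 were lost without hSKP2-KI replicate 1, 2 or 4 or WT replicate 1, 3 or 4, and that of Aldh16a1 without hSKP2-KI replicate 2 or WT replicate 3. Aldh7a1 and Aldh5a1 were called after scaling with each library left out in turn, whereas Aldh3b2 was called only with hSKP2-KI replicate 1 or WT replicate 2 left out, or with all 8. The longest transcripts of Aldh3b2 and its neighbour Aldh3b3 shared a run of 255 bases, and 6.82% of 150-base stretches of Aldh3b2 occur in Aldh3b3, so the value of Aldh3b2 may include reads of its neighbour. The other 8 tested genes of this group, among them the abundant Aldh6a1 (234 ± 32.2 TPM in WT) and Aldh3a2 (119 ± 39.3 TPM in WT), were called on neither scale. Aldh3a1 was the most uneven of them, at 6.77 TPM in WT replicate 1 and 0.844 to 2.06 TPM in the other WT samples.

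Of the 12 retinol dehydrogenases, 7 were tested, and all of these were below 25 TPM. Rdh10, the main retinol-oxidising enzyme of the embryo, averaged 12.4 ± 2.75 TPM in hSKP2-KI and 8.43 ± 1.52 TPM in WT prostates (SD, n = 4 each), with a difference of 0.50 (SE 0.16, adjusted p = 0.031) and 0.26 after scaling (adjusted p = 0.24). Rdh5, known for 11-cis-retinol oxidation in the eye, averaged 2.81 ± 0.517 and 1.88 ± 0.329 TPM, with a difference of 0.40 (SE 0.14, adjusted p = 0.047) and 0.22 after scaling (adjusted p = 0.29). Both calls were lost without hSKP2-KI replicate 3 or 4 or WT replicate 1, 3 or 4, that of Rdh10 also without hSKP2-KI replicate 2 and that of Rdh5 also without hSKP2-KI replicate 1. Rdh11, Rdh12, Rdh13, Rdh14 and Rdh16 were called on neither scale. The summed Rdh level was 57.6 to 64.7 TPM in hSKP2-KI and 48.2 to 55.7 TPM in WT prostates, without overlap, and the sums overlapped after scaling.

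The short-chain family was led by Dhrs7, Dhrs4 and Dhrs3. Dhrs3, the retinaldehyde reductase that retinoic acid induces in many cells, averaged 80.8 ± 19.4 TPM in hSKP2-KI and 50.1 ± 5.48 TPM in WT prostates (SD, n = 4 each). All hSKP2-KI samples, from 61.6 to 102 TPM, exceeded all WT samples, from 43.4 to 55.0 TPM. The difference of 0.65 was called (SE 0.15, adjusted p = 0.0109), and after scaling, where the groups overlapped, it was 0.39 (adjusted p = 0.14). Dhrs1 averaged 45.2 ± 4.55 TPM in hSKP2-KI and 53.1 ± 3.29 TPM in WT prostates, with no overlap on either scale. It did not pass as deposited (-0.23, adjusted p = 0.067) and was called lower after scaling (-0.49, adjusted p = 0.0233), a call lost without hSKP2-KI replicate 4 or WT replicate 1 or 3. Dhrs4, Dhrs7, Dhrs7b, Dhrs11 and Dhrs13 were called on neither scale.

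Taking the members by level, 5 averaged above 100 TPM over all 8 samples (Adh1, Aldh1a1, Aldh6a1, Aldh2 and Aldh3a2), 21 lay between 10 and 100 TPM and 11 of the tested members below 10 TPM. The plot of levels shows that the genotypes overlap or lie close for most members and that Adh6a and Adh7 stand apart. The 19 members called on neither scale differed by -0.09 to 0.48 as deposited and by -0.35 to 0.28 after scaling. The 10 members called only as deposited differed by 0.23 to 0.65, and by -0.04 to 0.39 after scaling. In 4 of these 10 the groups did not overlap as deposited, with hSKP2-KI the higher, and in 0 of them after scaling. Among all tested genes, 34.0% showed no overlap in this direction as deposited and 10.3% after scaling. The 10 members were chosen by a call as deposited and no call after scaling. The drop from 4 to 0 is therefore partly set by that choice. The summed level of all members was 2233 ± 68.9 TPM in hSKP2-KI and 2137 ± 148 TPM in WT prostates (SD, n = 4 each) with overlap, and after scaling it was 1994 to 2066 against 2219 to 2449, without overlap.

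**Figure D2:**
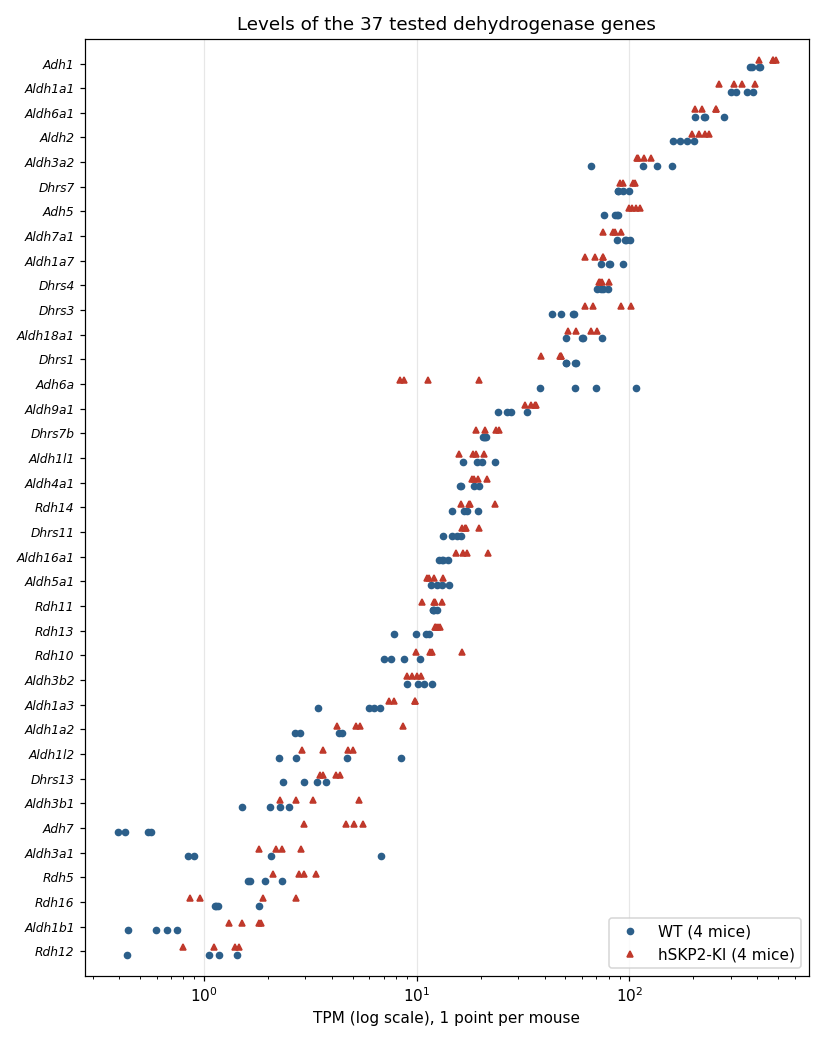
TPM on a log axis for the 37 tested members, 1 point per mouse, with WT as circles and hSKP2-KI as triangles, ordered by mean level. Values run from 0.396 TPM (Adh7 in WT replicate 1) to 487 TPM (Adh1 in hSKP2-KI replicate 2), and the points of Adh6a and Adh7 separate by genotype in opposite directions.

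**Figure D3:**
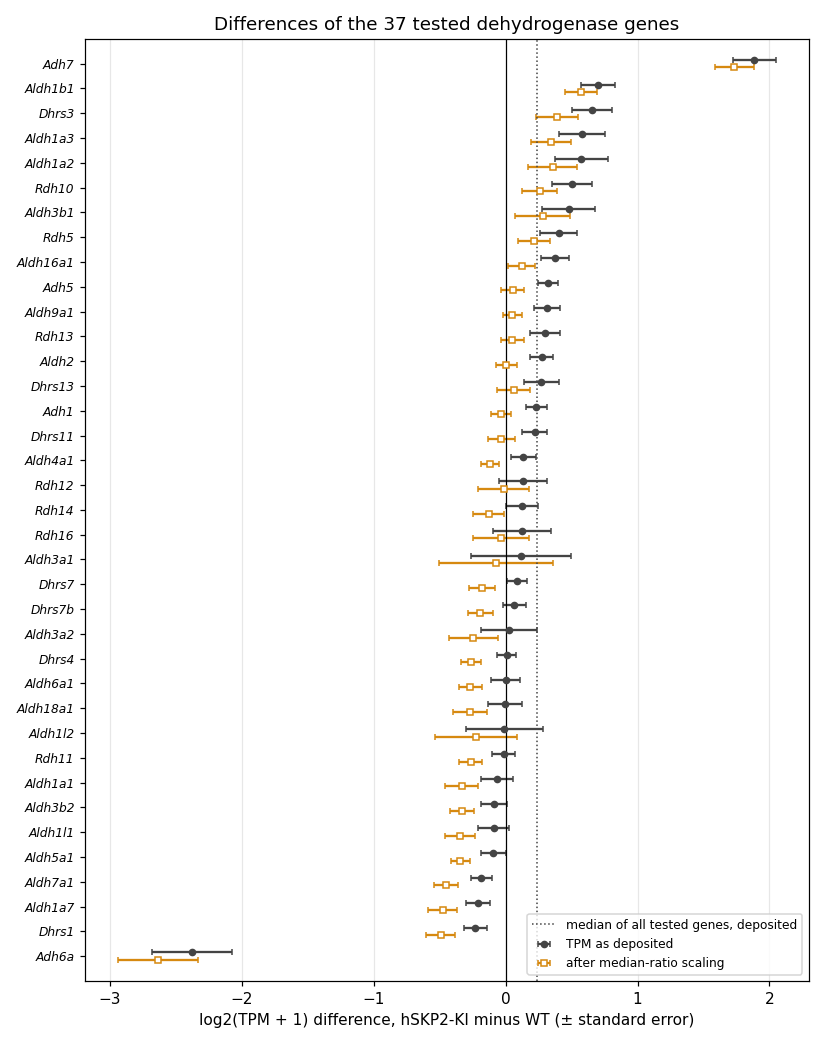
Difference between hSKP2-KI and WT prostates on the log2(TPM + 1) scale, with standard errors, for the 37 tested members in the TPM as deposited (filled circles) and after median-ratio scaling (open squares). The dotted line is the median of all tested genes as deposited, 0.23, and scaling moves nearly every member to the left by a similar amount, leaving Adh6a and Adh7 farthest from 0.

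The 13 members below the filter were Rdh1, Rdh7, Rdh8, Rdh9, Rdh19, Dhrs2, Dhrs7c, Dhrs9, Dhrs13os, Aldh3b3, Aldh8a1, Adh4 and Adh6b. In 12 of them no sample exceeded 1 TPM, and Rdh8 was listed at 0 in all 8 samples. A listing of 0 is weak evidence of absence in this table, since 5 of 5 mitochondrial genes looked up were also listed at 0 throughout. Dhrs9, a retinol-oxidising member of the short-chain family, was the exception above 1 TPM. It was listed at 0.127, 1.21, 0.405 and 0.211 TPM in hSKP2-KI and at 0.0323 TPM or less in WT samples, and with no filter its adjusted p was 0.109.

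The remainder of the retinoid pathway was taken from a list of 37 genes for vitamin A transport, storage, binding, breakdown and response. Of these 36 were in the table and 19 were tested. The list was chosen with earlier results of these data known, so its counts are only a description. In the TPM as deposited 9 were higher (47.4%) and 2 lower (10.5%), beside 32.7% and 1.23% of all tested genes. After scaling 5 were higher (26.3%) and 2 lower (10.5%), beside 6.92% and 4.25%. The list's median difference was 0.43 as deposited and 0.18 after scaling, against 0.23 and -0.0071 over all tested genes. Without hSKP2-KI replicate 4 or WT replicate 2, the number higher after scaling was 2, and it was 3 without hSKP2-KI replicate 1, WT replicate 3 or WT replicate 4.

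Of these genes 5 were higher on both scales, and 4 of them are described here. Rbp7, a retinol-binding protein, was listed at 2.26, 2.53, 1.96 and 3.01 TPM in hSKP2-KI and 0.535, 1.27, 0.490 and 0.601 TPM in WT samples, a difference of 1.01 (adjusted p = 0.0026). Only 1 WT sample of Rbp7 reached 1 TPM, so it entered the test through its hSKP2-KI samples. Cyp26b1, which breaks retinoic acid down, was listed at 4.15, 3.35, 3.41 and 4.41 TPM against 1.96, 2.14, 2.01 and 1.66 TPM, a difference of 0.71 (adjusted p = 0.0031). The genotypes did not overlap in either of these genes. Rarb, a retinoic acid receptor that is itself a target of retinoic acid, was listed at 4.27, 2.55, 2.16 and 3.20 TPM against 1.05, 1.37, 1.73 and 0.891 TPM, a difference of 0.83 (adjusted p = 0.0080). Rarres2, which encodes the secreted attractant chemerin, was listed at 49.1, 83.9, 50.6 and 63.2 TPM against 30.7, 27.5, 25.0 and 35.5 TPM, a difference of 1.01 (adjusted p = 0.0026). After scaling these differences were 0.87 (Rbp7), 0.52 (Cyp26b1), 0.65 (Rarb, adjusted p = 0.047) and 0.75 (Rarres2). With single samples left out after scaling, the largest adjusted p from limma was 0.027 for Rbp7, which kept its call. It was 0.056 for Cyp26b1, 0.11 for Rarb and 0.055 for Rarres2, so these calls depended on single libraries. Under quantile normalization Cyp26b1 (adjusted p = 0.067) and Rarb (adjusted p = 0.0998) were not called.

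Crabp1 and Rxrg were lower on both scales. Crabp1, the cellular retinoic acid-binding protein, was listed at 194, 145, 136 and 128 TPM in hSKP2-KI and at 334, 252, 302 and 260 TPM in WT samples. Its groups did not overlap, and the difference was -0.94 (SE 0.13, adjusted p = 0.0016) and -1.20 after scaling (adjusted p = 0.0042). Rxrg, a partner receptor of the retinoic acid receptors, was listed at 16.5, 12.1, 13.8 and 12.3 TPM against 16.6, 19.98, 17.3 and 21.5 TPM. Its highest hSKP2-KI and lowest WT samples nearly met, the difference was -0.44 (SE 0.12, adjusted p = 0.019), and the call was lost without hSKP2-KI replicate 2 or 4 or WT replicate 4. The plot of the retinoid genes sets 18 of the 19 differences side by side.

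**Figure D4:**
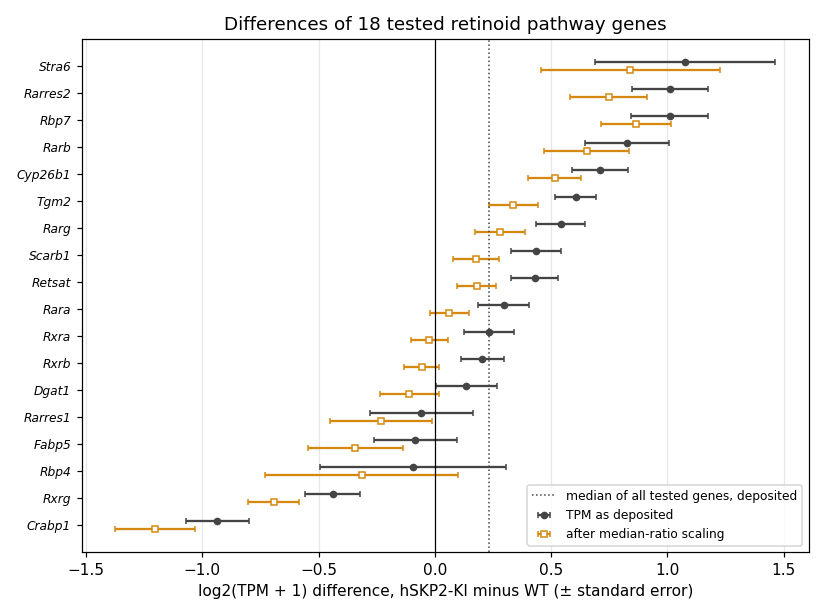
Difference between hSKP2-KI and WT prostates on the log2(TPM + 1) scale, with standard errors, for 18 of the 19 tested retinoid pathway genes, as deposited (filled circles) and after median-ratio scaling (open squares). Crabp1 and Rxrg lie left of 0 on both scales, Rarres2, Rbp7, Rarb and Cyp26b1 lie to the right on both, and Stra6, with a difference of 1.08, has a wide error and was not called (adjusted p = 0.052).

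Enzymes of other families that act on the same kinds of substrate, such as aldo-keto and carbonyl reductases and catalase, were taken from a list of 30 genes, of which 28 were in the table and 20 were tested. As deposited 4 were higher (20%) and 0 lower by limma, with 0 lower also at an unadjusted p under 0.05, and after scaling 1 was higher (5%) and 1 lower (5%). Over all tested genes these shares were 32.7% and 1.23% as deposited and 6.92% and 4.25% after scaling. This list too was chosen with earlier results of these data known. The gene higher on both scales was Akr1b8, an aldose reductase-like enzyme that reduces aldehydes and retinaldehyde. It was listed at 40.8, 43.5, 39.4 and 40.6 TPM in hSKP2-KI and 10.8, 23.3, 11.01 and 13.0 TPM in WT samples, without overlap. The difference was 1.504 (SE 0.19, adjusted p = 0.0010) and 1.25 after scaling (adjusted p = 0.0037).

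Some sets of cell type markers differed between the genotypes in the same libraries, and others did not. For comparison, 32.7% of all tested genes were called higher and 1.23% lower as deposited, and 6.92% and 4.25% after scaling. In bulk tissue a change in the share of a cell type and a change of RNA per cell cannot be told apart. The 5 proximal luminal markers (Krt4, Ppp1r1b, Psca and Ly6d among them) were all higher on both scales and summed to 370 to 615 TPM in hSKP2-KI against 132 to 163 TPM in WT prostates. All 8 fibroblast markers were higher as deposited and 3 after scaling, with sums of 848 to 1493 against 462 to 659 TPM. All 7 smooth muscle markers were higher as deposited and 4 after scaling, with sums of 3116 to 4757 against 2092 to 2642 TPM. Of the 8 macrophage markers 6 were higher as deposited and 0 after scaling, or 5 by an unadjusted p under 0.05 (213.7 to 436 against 94.8 to 197 TPM), of the 7 endothelial markers 5 and 1 (46.8 to 78.2 against 29.5 to 40.9 TPM), and of the 3 tested urothelial markers 3 and 2 (719.9 to 1014 against 398 to 662 TPM). Of the luminal markers 3 were higher as deposited and 1 was lower after scaling, and of the ventral secretory markers 1 was lower as deposited. As deposited 2 of 5 basal, 2 of 3 tested T cell and 1 of 3 tested skeletal muscle markers were higher, and after scaling these lists had 1, 2 and 1 marker higher by an unadjusted p under 0.05 and 0 after adjustment in limma. The sums of the adipocyte markers (44.6 to 210.3 against 27.4 to 169 TPM) and of the Schwann cell markers (20.5 to 27.1 against 14.3 to 22.0 TPM) overlapped. Hepatocyte and seminal vesicle markers summed to under 1 TPM in every sample, with Svs2 and Svs3a at 0 in all. The part of these cell types in the differences of Adh6a, Adh7, Aldh1b1, Akr1b8 and the retinoid genes was not tested.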

How the data were processed

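Poly-A RNA of the ventral prostate from 4 WT and 4 hSKP2-KI mice was sequenced as paired-end libraries and mapped by the authors in CLC software. Their processing notes name the build as mm10 (GRCm38), while version, annotation, strand setting and handling of multiply mapped reads are not given in the sources used here. The authors deposited a table of TPM, with 0 columns of other samples. TPM carries no depth, so no counting intervals are given.

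Samples were grouped by their labels. The 13080 genes that reached 1 TPM in 4 or more of the 8 samples were fitted as log2(TPM + 1) in limma (version 3.58.1, R 4.3.3), allowing a trend of variance with level, and p-values were Benjamini-Hochberg adjusted over all of them, with a threshold of 0.05. The mice of a genotype are separate animals. The fit was tested on simulated data. Members and gene lists were chosen with earlier results of these data known. Named with values in every sample were members called alike in the TPM as deposited and after median-ratio scaling, all Adh and Aldh1a genes, and list genes called alike on both scales. Members called on 1 scale are named with their difference, and Dhrs9, Aldh3a1, Stra6 and Gm16559 were added after their values were seen. Marker lists were luminal, ventral secretory, basal, proximal luminal, fibroblast, smooth muscle, endothelial, macrophage, T cell, adipocyte, skeletal muscle, seminal vesicle, urothelial, Schwann cell and hepatocyte.

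Scaling was varied by median ratios, by quantile normalization and by leaving the 20 most abundant genes out of the TPM total. Other alternatives were a pseudocount of 0.1, no filter, a filter on a mean of 5 TPM, leaving out each sample, and replicate number as a block. Repeating the last 2 on the scaled values was chosen after seeing the data. Positions and promoter windows are from RefSeq GRCm38.p6 and transcripts from GENCODE M21 (GRCm38), compared with Biopython 1.88. Python 3.11.15 and matplotlib 3.10.9 were used for the plots. Some genes within the naming rule are not reported here.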

Additional observations from a re-analysis of the deposited data

Results flagged for a closer look

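In groups of 4 samples, a sample was singled out where its gap to the nearest other sample as a share of the group's range passed Dixon's critical value. Chance gives about 1 in 20 groups, and 6 of the 152 groups (76 genes in both genotypes) were singled out. Among the members, Dhrs1 was listed at 38.4 TPM in hSKP2-KI replicate 4 and at 47.1 to 47.9 TPM in the other hSKP2-KI samples. Those other samples also lay below the lowest WT sample, at 50.2 TPM. Leaving out single samples gave differences of Dhrs1 from -0.26 to -0.155 as deposited, where all samples gave -0.23. After scaling the range was -0.56 to -0.41, where all samples gave -0.49. Rdh16 was listed at 1.81 TPM in WT replicate 3 and at 1.13 to 1.16 TPM in the other WT samples.

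Among the listed pathway genes, WT replicate 3 was apart for Rarg (24.1 TPM, with 25.7 to 25.9 TPM in the other WT samples) and for Rarres1 (0.974 TPM, with 2.26 to 2.45 TPM). Scarb1, a receptor for lipoproteins and carotenoids, was listed at 22.8 TPM in hSKP2-KI replicate 1 and at 30.5 to 31.3 TPM in the other hSKP2-KI samples. Sord, the sorbitol dehydrogenase, was listed at 61.7 TPM in hSKP2-KI replicate 4 and at 44.4 to 45.3 TPM in the others.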

How the results depend on the processing

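The differences of Adh6a and Adh7 passed the test under every alternative run, 15 and 14 of them. Except in the fit with no filter, Adh7 was tested only because its hSKP2-KI samples passed the filter. Those passes of Adh7 are therefore only a description. Adh7, with a mean of 2.52 TPM over all samples, was left out by the filter on a mean of 5 TPM and was not tested there. The call of Aldh1b1 was lost under quantile normalization. Counts depended on scaling. Members higher numbered 12 as deposited, 2 after median-ratio scaling, 1 after quantile normalization, 2 without the 20 most abundant genes and 5 with no filter. Members lower numbered 1, and 6, 7 and 6 under the 3 scalings. Retinoid genes higher numbered 9, and 5 and 4 under median-ratio and quantile scaling. Other carbonyl and alcohol enzymes higher numbered 4, and 1 under each of the 3 scalings, while those lower numbered 0, and 1 under each. Over all tested genes, 4272 were higher and 161 lower, against 905 and 556, 709 and 608, and 892 and 438 under median-ratio scaling, quantile normalization and without the 20 most abundant genes.

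Leaving out single samples gave 5 to 13 members higher, 9 to 11 retinoid genes higher and 1 to 2 lower, 2 to 4 other enzymes higher and 0 to 1 lower, and 2839 to 4548 genes higher in all, the lowest without WT replicate 1. After median-ratio scaling it gave 2 members higher each time, 4 to 7 lower, 2 to 5 retinoid genes higher, and 1 to 2 other enzymes higher and 0 to 2 lower.

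Of 398 values of 27 named genes under alternatives, 297 kept direction and side of the threshold, 83 lost and 15 gained the call, and 3 reversed. The reversed values were Adh1 after median-ratio scaling (-0.037) and without the 20 most abundant genes (-0.016), and Aldh1a1 without hSKP2-KI replicate 1 (0.028, the highest of a range from -0.16 when single samples were left out). The cause of these changes beyond the scaling itself was not tested.

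The labels do not say whether mice of the same replicate number were paired. The correlations of same-numbered deviations were 0.22, -0.11, 0.17 and -0.01. A replicate block gave 10 members higher and 2 lower (Dhrs1 joined Adh6a), 11 retinoid genes higher, 6 other enzymes higher, and 4941 genes higher and 187 lower in all. After scaling the block gave 2 members higher and 5 lower, and 2 other enzymes lower.

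TPM gives no depth, so the precision of low members such as Adh7 and Aldh1b1 rests on the spread of 4 mice.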
